A study of Gallus gallus with 16 samples.

Results

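The comparison described here is that of chicken embryos given nicotine with embryos given vehicle, at day 7 of incubation. Its members are 8 of the 16 libraries of the series, 4 from nicotine embryos and 4 from vehicle embryos, chosen by their labelled treatment and age. All embryos were wild-type domestic chickens from specific pathogen-free eggs. Nicotine, as its hydrogen bitartrate salt at 30 ng/ml scaled to egg weight, or sodium bitartrate as vehicle, was injected into the blunt end of the egg before incubation. The other 8 libraries are the same 2 groups at day 5. RNA was taken from the part of the trunk that holds the spinal cord, from mid-neck down to where the forelimb ends. The labels describe the 4 libraries of a group as biological replicates from randomly chosen embryos that had a heartbeat and no gross abnormality, so embryos with a malformation were not sampled.

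Nicotine opens nicotinic acetylcholine receptors, channels made of 5 subunits that carry fast cholinergic signals at the nerve-muscle contact and between neurons, and several of their subunit genes are active in the embryonic spinal cord. The tissue between neck and forelimb also borders pharyngeal arch, limb bud, skin and somite tissue. DLX genes encode homeobox transcription factors of the pharyngeal arches, the limb ridge, the surface ectoderm and the ventral forebrain, and they lie in the genome as linked pairs. In the RefSeq annotation GRCg7b, DLX1 and DLX2 are direct neighbours, as are DLX5 and DLX6, while DLX3 lies beside DLX4. HOX genes encode homeobox transcription factors whose combination marks position along the head-to-tail axis.

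Total counts at day 7 ran from 22068337 to 28820505 per library, so that 1 count was worth about 0.0453 CPM (counts scaled to library size) in the shallowest one. Replicate 2 of each day 7 group lacked a shared set of 57 loci, as did 1 library in each day 5 group, and the first principal component of the day 7 libraries, with 25% of the variance, set these 2 libraries apart (scores 72.1 and 65.8, against -29 to -12.4). Spinal cord markers were present in every library: NEFM, a neurofilament subunit, stood at 398 to 499 CPM in vehicle and 362 to 497 CPM in nicotine, and NKX6-1, a ventral progenitor factor, at 53.05 to 69.0 and 53.08 to 61.2 CPM. Markers of other tissues were present too. The 4 matched markers of surface ectoderm and limb ridge summed to 90.6 to 163 CPM in vehicle and 71.7 to 116 CPM in nicotine, and the 2 of muscle to 126 to 276 and 215 to 321 CPM. The 4 of cartilage and mesenchyme summed to 534 to 598 and 405 to 544 CPM, the 3 of leukocytes to 34.0 to 35.4 and 34.6 to 37.8 CPM, and the 5 of liver to 1.00 to 2.65 and 0.945 to 1.78 CPM. KDR, the matched marker of endothelium, stood at 34.2 to 49.0 and 40.3 to 49.8 CPM, and the 2 of neural crest and sensory ganglia summed to 5.85 to 7.82 and 5.62 to 7.85 CPM.

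Named genes that passed in the authors' deposited table included DLX1, DLX5, DLX6, CDH1 and MMP11, each lower with nicotine, and HOXC4, higher with nicotine. Few loci passed any test. edgeR, the main test, called 0 of 18394 tested loci (0%) at an adjusted p under 0.05; its smallest adjusted p was 0.0616, and 858 loci had an unadjusted p under 0.05, of which 433 were higher with nicotine (2.35%) and 425 lower (2.31%). DESeq2 called 28 of 23558 loci (0.119%), 15 higher and 13 lower, and 20 with the 2 libraries that lack the shared loci left out. edgeR restricted to the 8 libraries of day 7 called 5 of 17707 (0.0282%). The authors' deposited table lists 84 of 21357 loci as passing (0.393%), 47 higher and 37 lower, and 18 of these carry a symbol out of 9225 rows with one (0.195%).

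The deposited table names genes but holds no level, and the deposited counts carry locus identifiers that mostly have no name. The authors' log2 fold changes in 3 comparisons were matched to those of DESeq2 on the counts, with a covariate for the libraries that lack the 57 loci. This joined 9183 of the 9225 named rows to a locus, 1141 of them by a shared identifier and the rest by their values. Of 7138 rows joined by identifier, 5764 also met the rule on values, all 5764 of them at the same locus, and the rest did not meet it. The levels of named genes below rest on that join.

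All 5 DLX genes measured stood lower with nicotine at day 7, and DLX1, DLX5 and DLX6 fell in the authors' deposited table. DLX6 stood at 10.2, 33.1, 2.11 and 9.69 CPM in vehicle replicates 1 to 4 and at 1.93, 2.11, 1.54 and 0.848 CPM in nicotine replicates 1 to 4. Vehicle replicate 2 was far above the rest and vehicle replicate 3 level with the highest nicotine library, so the groups only just did not overlap. The vehicle mean was 8.57-fold that of nicotine. The log2 fold change by edgeR was -3.09 ± 0.77 (SE; adjusted p = 0.905), against -2.80 in the authors' deposited table (adjusted p = 0.00214).

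DLX5, the neighbour of DLX6, stood at 23.5, 50.3, 7.08 and 18.4 CPM in vehicle and at 7.10, 6.94, 4.99 and 3.01 CPM in nicotine. The groups overlapped at vehicle replicate 3 and nicotine replicate 1, and vehicle replicate 2 was again the highest. Its edgeR log2 fold change was -2.17 ± 0.56 (SE), and the authors' deposited table gives -2.02 (adjusted p = 0.00422).

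DLX1 stood at 7.74, 16.9, 3.73 and 8.57 CPM in vehicle and at 2.15, 1.82, 3.22 and 1.44 CPM in nicotine. Every vehicle library was above every nicotine library, and vehicle replicates 2 and 3 were once more the highest and the lowest of their group. Its edgeR log2 fold change was -2.10 ± 0.46 (SE), and the authors' deposited table gives -1.97 (adjusted p = 0.00171). DLX2, the neighbour of DLX1, did not pass: it stood at 5.17, 16.3, 1.61 and 5.60 CPM in vehicle and at 1.78, 1.20, 2.63 and 0.594 CPM in nicotine, an edgeR log2 fold change of -2.21 ± 0.73 (SE). DLX3, known from the ectoderm and the placodes, did not pass either, at 5.25, 11.2, 1.44 and 4.43 CPM in vehicle and 2.11, 1.31, 1.81 and 1.31 CPM in nicotine. In both of these genes vehicle replicate 3 lay inside the nicotine range.

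As a list, the 5 DLX genes had a median edgeR log2 fold change of -2.17, where the median of all loci tested was 0.01. Of the 5, 3 passed as lower in the authors' deposited table, against 0.173% of all rows. In the counts, 2 of 5 had groups that did not overlap with nicotine lower, against 2.42% of the loci tested. The list was chosen with earlier results of these data known, and its members share vehicle replicate 2 as their highest library. These shares therefore describe the 5 DLX genes and are not a test. In bulk tissue, fewer cells that use these genes and less RNA per cell cannot be told apart.

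**Figure D1:**
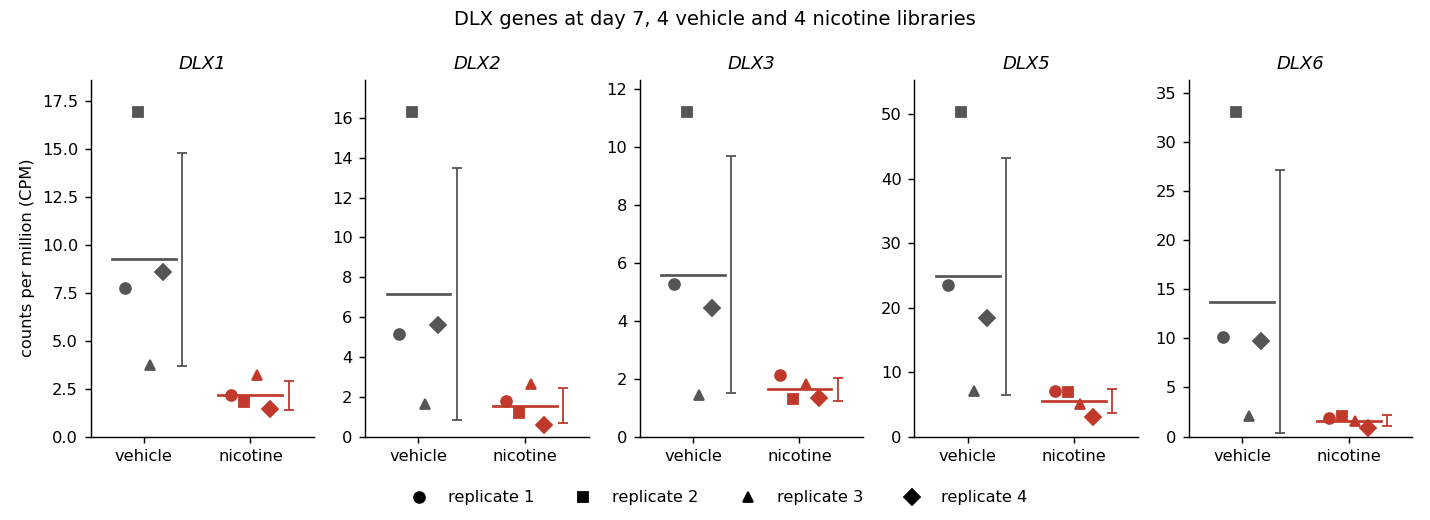
CPM of the 5 DLX genes in the 4 vehicle (grey) and 4 nicotine (red) libraries of day 7; marker shapes are replicate numbers, horizontal lines are means and bars to the right are 1 SD. Vehicle replicate 2 (squares) is the highest point in every panel, and vehicle replicate 3 (triangles) stands close to or inside the nicotine points.

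The DLX calls leaned on vehicle replicate 2. DESeq2 called DLX1, DLX5 and DLX6 on all libraries (adjusted p = 0.00409, 0.0254 and 0.00969). Without vehicle replicate 2 it called none of these 3 (adjusted p = 0.137, 0.624 and 0.513), and the edgeR log2 fold changes moved to -1.63, -1.56 and -2.18. DLX5 also lost its call without vehicle replicate 1, nicotine replicate 3 or nicotine replicate 4 (adjusted p = 0.0993, 0.0872 and 0.150), and DLX6 without nicotine replicate 4 (adjusted p = 0.0775). Without vehicle replicate 3 the adjusted p of each was lower, at 9.12e-05, 0.000479 and 0.000162.

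In vehicle embryos DLX1, DLX3, DLX5 and DLX6 rose from day 5 to day 7, by edgeR log2 fold changes of 1.64, 1.35, 1.50 and 2.66 (adjusted p = 0.00964, 0.0405, 0.0421 and 0.0119). In nicotine embryos none of the 5 passed between the days, and DLX1, DLX3, DLX5 and DLX6 stood at -0.99, 0.00, -0.58 and -0.28 (edgeR adjusted p = 0.113, 0.998, 0.470 and 0.823). Passing between the days was common: edgeR called 6844 of 18394 loci in vehicle (3231 higher at day 7) and 5451 in nicotine (2417 higher). A pass in 1 group and not in the other is not a test of the difference. These comparisons also share the day 7 libraries with the comparison of nicotine and vehicle. At day 5 the ranges of the groups overlapped: DLX5 ranged from 2.2 to 13.1 CPM in vehicle and from 5.02 to 10.5 CPM in nicotine, and DLX6 from 0.138 to 3.76 and from 1.6 to 2.74 CPM. The day 7 nicotine levels of DLX5, from 3.01 to 7.10 CPM, thus lay within the day 5 vehicle range. The difference of the nicotine effect between the days was -2.64 ± 0.63 (SE) for DLX1 and did not pass (edgeR adjusted p = 0.237), while the authors' deposited table gives -2.49 for it (adjusted p = 0.0123).

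Of the epithelial genes, CDH1 fell in the authors' deposited table and most others had negative values without passing. Of the 16 surface epithelium genes tested, 14 had a negative log2 fold change, against 3698 of all 8772 tested loci with a symbol. The list median was -0.63, and 7 of its members had an unadjusted edgeR p under 0.05 as lower, against 2.31% of all loci. In 1 of the 16 the groups did not overlap with nicotine lower, against 2.42% of the loci tested. This list too was chosen with earlier results of these data known, so these shares describe its members and are not a test. Of the 16, 1 passed as lower in the authors' deposited table, against 0.173% of all rows: CDH1, which encodes the cadherin that joins epithelial cells. CDH1 stood at 75.4, 99.5, 55.7 and 78.7 CPM in vehicle and at 49.5, 64.9, 41.9 and 46.2 CPM in nicotine. The groups overlapped at vehicle replicate 3 and nicotine replicate 2, and the vehicle mean was 1.53-fold higher. Its log2 fold change was -0.61 in the authors' deposited table (adjusted p = 0.0320). DESeq2 without the covariate did not call it (adjusted p = 0.452).

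CLDN3, a tight-junction protein, stood at 19.8, 18.5, 3.56 and 13.5 CPM in vehicle and at 2.99, 9.08, 1.18 and 2.46 CPM in nicotine. Vehicle replicate 3 again lay inside the nicotine range, so the groups overlapped. It passed in DESeq2 with the covariate for absent loci (log2 fold change -2.02, adjusted p = 0.0282) but not in the authors' deposited table (adjusted p = 0.0578). ESRP1, an epithelial splicing factor, ranged from 1.91 to 3.51 CPM in vehicle and from 0.806 to 2.07 CPM in nicotine, and TFAP2C, an ectodermal transcription factor, from 2.92 to 8.70 and from 1.53 to 2.83 CPM, its top value again in vehicle replicate 2, without passing (adjusted p = 0.384 and 0.150 in the authors' deposited table).

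Of 14 tested genes of face and pharyngeal arch mesenchyme, 13 were negative, against 3698 of all 8772 tested loci with a symbol. The list median was -0.32, and 0 of the 14 passed in the authors' deposited table or by edgeR, which called no locus at all. HAND2, which patterns the lower jaw and the rear of the limb bud, stood at 3.13, 21.8, 3.96 and 15.0 CPM in vehicle and at 4.01, 3.63, 4.40 and 3.01 CPM in nicotine. Its difference was carried by vehicle replicates 2 and 4. PRRX2, a homeobox gene of connective tissue precursors, ranged from 57.8 to 82.4 CPM in vehicle and from 45.8 to 56.5 CPM in nicotine, with no overlap. Outside that list, LHX8, a LIM homeobox gene of jaw mesenchyme and forebrain, stood at 4.37, 8.30, 2.85 and 6.89 CPM in vehicle and at 2.19, 1.93, 2.72 and 1.57 CPM in nicotine, also with no overlap. SIX2, a homeobox gene of head and kidney mesenchyme, ranged from 20.9 to 35.6 and from 13.0 to 18.3 CPM. PRRX2, LHX8 and SIX2 passed in DESeq2 on the 8 libraries of day 7 alone (adjusted p = 0.0485, 0.0389 and 0.00782). That fit called 95 of 22875 loci. Lack of overlap with nicotine lower was seen in 2.42% of all loci tested. The 3 genes were called on the same libraries, so their lack of overlap follows in part from that choice.

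Among 13 tested genes of limb bud and apical ridge, 5 were positive and the median was -0.40. FGF10, the growth factor that starts limb outgrowth, ranged from 1.51 to 4.25 CPM in vehicle and from 1.53 to 2.47 CPM in nicotine. SP8, a transcription factor of the apical ridge, stood at 4.91 to 6.98 and 6.53 to 9.98 CPM, an edgeR log2 fold change of 0.38 that did not pass.

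HOXC4 passed in the authors' deposited table, and the other tested HOX genes had positive values without passing. Of 51 HOX genes listed, 11 were in the authors' deposited table by symbol, so most of the family was not tested. All 11 were joined and 7 passed the filter on low counts. The median edgeR log2 fold change of the 7 was 0.77. All 7 were positive, against 57.8% of all tested loci with a symbol. HOXC4, which is active from the neck level backwards, was the HOX gene that rose in the authors' deposited table, by 0.61 (adjusted p = 0.0250), against 0.22% of rows passing as higher. DESeq2 without the covariate did not call it (adjusted p = 0.242). It stood at 16.5, 11, 17.4 and 17.6 CPM in vehicle and at 23.4, 19.0, 27.8 and 24.5 CPM in nicotine. Every nicotine library was above every vehicle library, in contrast to the other HOX genes. HOXD3, which reaches further forward, stood at 76.6 to 115 CPM in vehicle and 107 to 160 CPM in nicotine, and HOXB1, a hindbrain and anterior trunk gene, at 2.16 to 6.58 and 5.35 to 13.4 CPM. At day 5 HOXD3 had nearly the same log2 fold change, 0.43 ± 0.15 (SE), as at day 7, 0.42 ± 0.15 (SE).

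The HOX genes of the thoracic level differed most between vehicle embryos themselves. HOXB9 stood at 0.00, 0.484, 10.2 and 5.47 CPM in vehicle replicates 1 to 4 and at 12.6, 11.4, 8.21 and 10.4 CPM in nicotine. Replicates 1 and 2 of vehicle thus had almost none, while vehicle replicate 3 was within the nicotine range. HOXB7 followed the same order, at 9.54, 10.6, 44.9 and 21.6 CPM in vehicle and 41.7, 33.6, 35.0 and 37.5 CPM in nicotine. HOXC6 stood at 0.00, 0.00, 2.82 and 0.501 CPM in vehicle and 3.17, 2.22, 1.27 and 1.65 CPM in nicotine. The edgeR log2 fold changes of HOXB9, HOXB7 and HOXC6 were 1.39 ± 0.95, 0.77 ± 0.46 and 1.3 ± 1.2 (SE), and none passed. Without vehicle replicate 3 they were 2.43, 1.40 and 3.63, and without vehicle replicate 1 they were 0.98, 0.52 and 0.90. HOXA10, HOXC10, HOXC11 and HOXD9 were below the filter, with at most 18 counts in any day 7 library. HOXA10 had its 10 day 7 counts in nicotine replicate 2.

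Skeletal muscle genes, like these HOX genes, were highest in replicate 3 and next in replicate 4 among the vehicle libraries. The 18 tested members were each positive with nicotine, against 57.8% of all tested loci with a symbol. The median edgeR log2 fold change of the 18 was 0.33, and 0 passed. Their summed level was 678, 628, 1404 and 995 CPM in vehicle replicates 1 to 4 and 1190, 1121, 1186 and 1309 CPM in nicotine. MYH15, a myosin heavy chain, ranged from 103 to 236 CPM in vehicle and from 183 to 296 CPM in nicotine. Vehicle replicate 3, the highest library for muscle genes, was the lowest vehicle library for the DLX list (16 CPM in sum, against 51.9, 128 and 46.7) and for surface epithelium (350 CPM, against 453, 555 and 462), and the highest vehicle library for the HOX list (267 CPM, against 152, 125 and 185). In these 4 lists it therefore stood with or near the nicotine libraries. Those summed to 7.21 to 15.1 CPM for DLX, 269 to 427 CPM for surface epithelium and 237 to 328 CPM for HOX genes. In the limb bud list it also stood near them, at 208 CPM against 188 to 208 CPM. In the list of face and pharyngeal arch mesenchyme it did not. That list summed to 638, 733, 688 and 715 CPM in vehicle replicates 1 to 4 and to 536 to 594 CPM in nicotine, with no overlap. How much the level of the cut or the share of neighbouring tissue contributes to the nicotine differences was not tested.

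**Figure D2:**
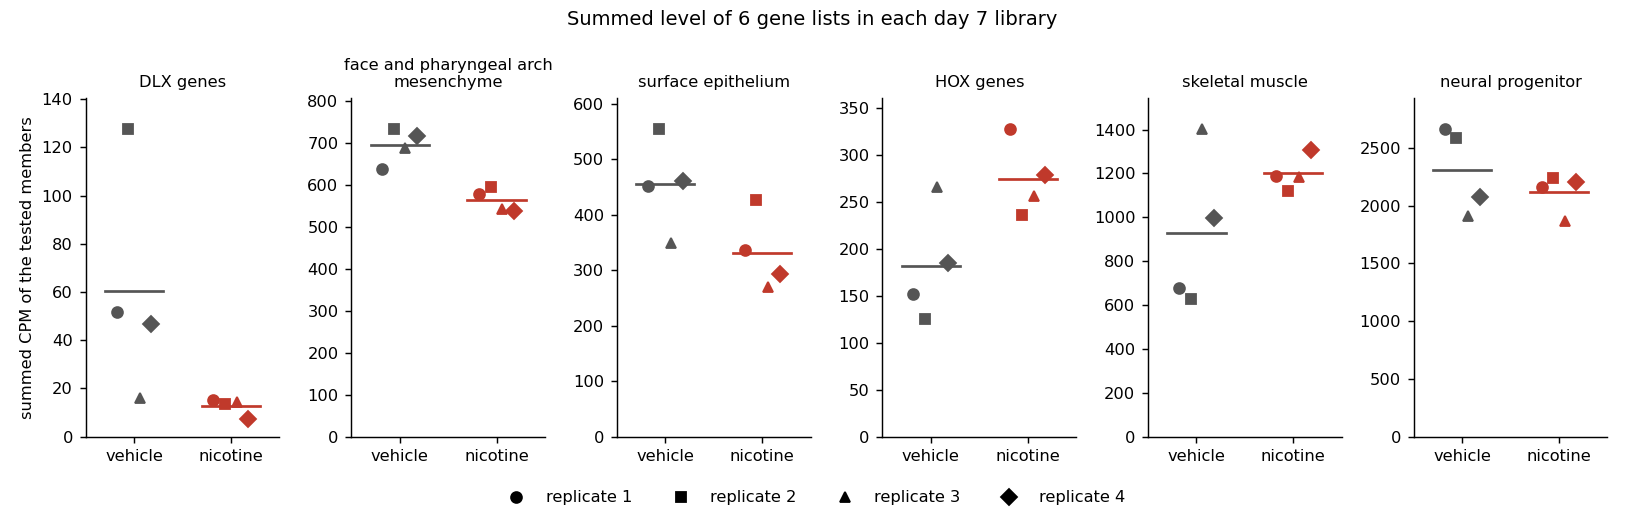
Summed CPM of the tested members of 6 gene lists in each day 7 library; grey is vehicle, red nicotine, shapes are replicate numbers and horizontal lines are means. Vehicle replicate 3 (triangles) is lowest of the vehicle libraries for DLX genes and surface epithelium and highest for HOX and skeletal muscle genes. For face and pharyngeal arch mesenchyme every vehicle library lies above every nicotine library.

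Among genes of the extracellular matrix, MMP11 and THBS4 fell in the authors' deposited table and TIMP4 did not pass there. MMP11, a secreted metalloproteinase of remodelling connective tissue, stood at 12.2, 21.8, 14.4 and 20.3 CPM in vehicle and at 8.92, 7.48, 10.3 and 7.59 CPM in nicotine. The groups did not overlap, and the vehicle mean was 2.00-fold that of nicotine. Of the named genes in the authors' table, it was the one that DESeq2 kept calling whichever day 7 library was left out (adjusted p = 2.82e-05 to 0.0313). With both libraries that lack the shared loci left out, DESeq2 no longer called it (adjusted p = 0.189), and edgeR gave a log2 fold change of -0.81 against -1.0 on all libraries. In vehicle MMP11 rose from day 5 to day 7 by a log2 fold change of 1.61 (edgeR adjusted p = 3.75e-05), and in nicotine it stood at 0.45 without passing (edgeR adjusted p = 0.0947).

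THBS4, a thrombospondin of tendon and muscle attachment, stood at 75.8, 129.98, 75.9 and 82.6 CPM in vehicle and at 64.2, 71.1, 69.97 and 65.7 CPM in nicotine. The groups did not overlap, but vehicle replicate 2 lay far above the rest: without it the edgeR log2 fold change moved from -0.43 to -0.21. The authors' deposited table gives -0.40 (adjusted p = 0.0215), while DESeq2 without the covariate did not call it (adjusted p = 0.727). TIMP4, an inhibitor of metalloproteinases, ranged from 12.2 to 14.2 CPM in vehicle and from 17.2 to 18.2 CPM in nicotine, with no overlap, and passed in DESeq2 on the 8 libraries of day 7 alone (adjusted p = 0.00884). Of the 13 metalloproteinase, inhibitor and thrombospondin genes tested, 2 passed as lower and 0 as higher in the authors' deposited table, against 0.173% and 0.22% of all rows, and the median log2 fold change was -0.10.

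KCNJ2, an inward-rectifier potassium channel, fell in the authors' deposited table by a log2 fold change of -0.59 (adjusted p = 0.0341). DESeq2 without the covariate missed the threshold for KCNJ2 (adjusted p = 0.0662). It stood at 25.1, 22.0, 26.6 and 22.6 CPM in vehicle and at 12.8, 15.7, 17.0 and 18.5 CPM in nicotine, with no overlap and a vehicle mean 1.50-fold higher. KCNJ2 rose from day 5 to day 7 in both groups, by 1.45 in vehicle and 0.92 in nicotine on the log2 scale (edgeR adjusted p = 1.62e-05 and 0.000445). Between the days edgeR called 6844 of 18394 loci in vehicle and 5451 in nicotine.

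CFAP52, a protein of motile cilia, fell in the authors' deposited table by -1.96 (adjusted p = 0.0357). DESeq2 without the covariate missed the threshold for CFAP52 (adjusted p = 0.0711). It was a gene of low level, at 2.97, 2.46, 1.17 and 1.55 CPM in vehicle and 0.874, 0.327, 0.272 and 0.551 CPM in nicotine, with no overlap. Of 23 tested cilium and axoneme genes it was the 1 that passed as lower, against 0.173% of all rows, 8 were positive, and the median was -0.18, so the list did not follow it. FOXJ1, the regulator of motile cilia, had an edgeR log2 fold change of -0.31 and did not pass.

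AGFG1, a nucleoporin-related protein of vesicle transport, rose in the authors' deposited table by 0.37 (adjusted p = 0.0294). It stood at 53.3, 51.4, 70.4 and 50.5 CPM in vehicle and at 77.2, 70.4, 71.4 and 72.7 CPM in nicotine. Vehicle replicate 3 was level with the nicotine libraries and the other vehicle libraries were well below them. Without that library DESeq2 gave an adjusted p of 1.11e-13, against 0.0715 with it. edgeR called AGFG1 in 0 of the 8 fits without 1 day 7 library, with a lowest adjusted p of 0.0748.

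**Figure D3:**
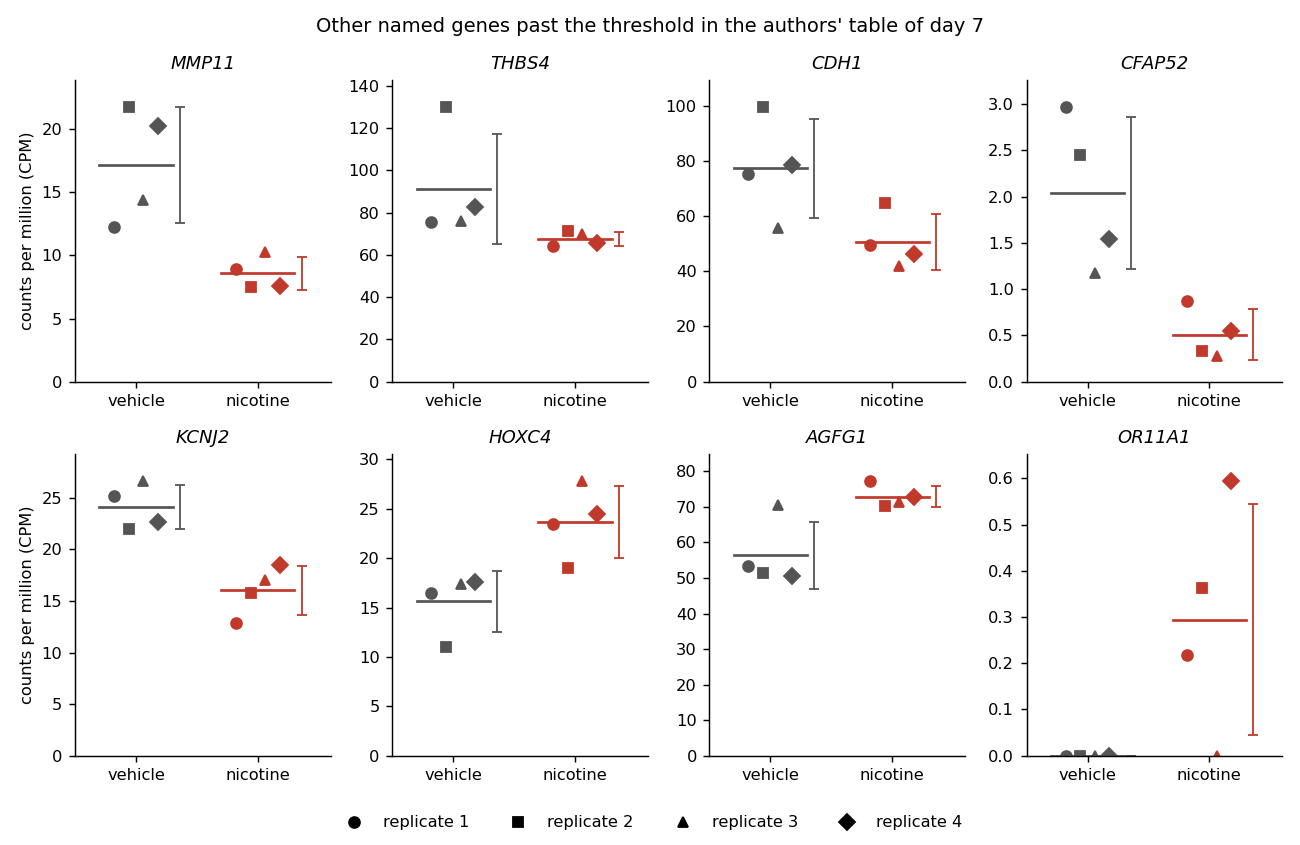
CPM at day 7 of the 8 named genes outside the DLX family that pass in the authors' deposited table with a log2 fold change of at most 10 in size; grey is vehicle, red nicotine, shapes are replicate numbers, lines are means and bars are 1 SD. The groups do not overlap for MMP11, THBS4, CFAP52, KCNJ2 and HOXC4, and they overlap for CDH1, AGFG1 and OR11A1.

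DESeq2 with the covariate for absent loci called 184 of 23555 loci (0.781%), and added 6 tested named genes to those of the authors' deposited table: CLDN3, NHSL1, RRAGD, NIT2, IMPG2 and MTERF2. The log2 fold changes of that fit nearly equal the authors' at joined loci, so it is not a separate test. NHSL1, a regulator of cell migration, stood at 94.1, 87.7, 53.1 and 61.2 CPM in vehicle and 138, 113, 105 and 103 CPM in nicotine (adjusted p = 0.0315). RRAGD, a GTPase that signals nutrient state to mTOR, ranged from 37.4 to 45.5 CPM in vehicle and from 49.2 to 55.9 CPM in nicotine (adjusted p = 0.0408). NIT2, an amidase, had a small and even difference, 144 to 158 and 159 to 175 CPM (adjusted p = 0.0456). IMPG2, a proteoglycan known from the retina, ranged from 3.22 to 9.26 CPM in vehicle and from 0.771 to 2.66 CPM in nicotine, and MTERF2, a mitochondrial transcription factor, from 2.25 to 2.59 and from 0.947 to 1.56 CPM (adjusted p = 0.0370 and 0.0396). None of these 5 showed overlap of the groups, while CLDN3, the other of the 6, did. Of all loci tested, 2.42% had no overlap with nicotine lower and 2.84% with nicotine higher. The 5 were called on the same libraries, so their lack of overlap follows in part from that choice.

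DESeq2 on the 8 libraries of day 7 alone called 95 of 22875 loci. BFAR, an apoptosis regulator, stood at 28.9, 29.1, 32.4 and 29.5 CPM in vehicle and 41.7, 41.1, 40.4 and 43.4 CPM in nicotine in that fit (adjusted p = 1.38e-07). GPR149, an orphan receptor, ranged from 4.49 to 5.51 CPM in vehicle and from 10.2 to 13.9 CPM in nicotine (adjusted p = 2.73e-09). At day 5 GPR149 ranged from 1.61 to 14 CPM among vehicle embryos, a wider spread than the day 7 groups showed. With all 16 libraries both missed the threshold (DESeq2 adjusted p = 0.460 for BFAR and 0.656 for GPR149).

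Genes of the liver and of clotting, and 2 others, passed in the authors' deposited table on very few reads. F9, clotting factor IX, had 0 counts in the 4 vehicle libraries and 2, 2, 0 and 6 counts in the nicotine libraries. TAT, a tyrosine-degrading liver enzyme, had 9 counts in vehicle replicate 1 and 0 in the other 7 libraries of day 7. PROC, the anticoagulant protein C, had 4 counts and HGFAC, a serum protease, 3 counts, all in vehicle replicate 4. FAM3D and UPK3A, a cytokine-like and a urothelial protein, had 5 and 14 counts, all in nicotine replicate 2. FGG, a fibrinogen chain, could not be joined to a locus. Those 7 have log2 fold changes over 10 in size in that table, and no fold is given for them. ALB, serum albumin, was at 0.836 to 2.29 CPM in vehicle and 0.872 to 1.68 CPM in nicotine. Of the 23 liver and clotting genes in the authors' deposited table, 2 passed as higher and 3 as lower, against 0.22% and 0.173% of all rows. edgeR called 0 of the 14 tested liver and clotting genes, but it called no locus at all.

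Most of the authors' calls had reads in few libraries. Of the 84, 54 have a log2 fold change over 10 in size, and 47 of these could be joined to a locus. In 31 of the 47 the reads came from 1 library of the higher group, in 15 from 2 or 3 libraries, in 1 from no day 7 library of that group, and in 0 from all 4. Of the 29 joined calls of at most 10 in size, 12 were higher and 17 lower with nicotine, 20 had groups that did not overlap, and 18 of these also had at least 2 CPM in the higher group. OR11A1, an olfactory receptor, belongs to the low ones: it had 0 counts in vehicle and 6, 10, 0 and 14 counts in nicotine. Of all loci tested, 2.42% had groups that did not overlap with nicotine lower and 2.84% with nicotine higher. The 29 calls were made on the same libraries, so their larger share follows in part from that choice.

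No nicotinic receptor subunit passed in any test run at day 7. The neuronal subunits CHRNA4 and CHRNB2 stood at 19.95 ± 2.17 and 21.4 ± 2.52 CPM, and at 11.7 ± 1.64 and 10.6 ± 0.730 CPM, in vehicle and nicotine (SD, n = 4 each). CHRNA3, the ganglionic subunit, stood at 2.19 ± 0.783 and 3.01 ± 0.653 CPM, and its partner CHRNB4 at 3.36 ± 1.29 and 3.58 ± 1.17 CPM (SD, n = 4 each). The muscle subunits CHRNA1 and CHRNG stood at 25.3 ± 13.0 and 34.2 ± 9.45 CPM, and at 6.5 ± 2.91 and 6.80 ± 1.28 CPM (SD, n = 4 each). CHRNB3, CHRNA2 and CHRNA6 were at or below 2.62 CPM in every day 7 library, and CHRNA9 was below the filter. The median log2 fold change of the 9 tested was 0.09, and the largest in size was that of CHRNA6, -0.85 ± 0.78 (SE).

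No member of the neural lists passed in the authors' deposited table. The 9 tested genes of neuronal cytoskeleton and RNA binding had a median of 0.04, the 15 neural progenitor genes 0.10 and the 16 spinal interneuron transcription factors 0.11. The 8 GABA neuron genes had a median of 0.08 and the 10 motor neuron and cholinergic genes 0.21. Of these last 10, 8 were positive, against 57.8% of tested loci with a symbol. In 2 of the 10 the groups did not overlap with nicotine higher, against 2.84% of the loci tested and 322 of the 8772 with a symbol. PAX3, a dorsal progenitor and muscle precursor gene, ranged from 11.1 to 15.0 CPM in vehicle and from 15.1 to 25.1 CPM in nicotine, an edgeR log2 fold change of 0.57 ± 0.18 (SE; adjusted p = 0.288 in the authors' deposited table). HES5, a Notch target, stood at 29.4 ± 6.32 and 41.5 ± 8.75 CPM (SD, n = 4 each). SLC18A3, the vesicular acetylcholine transporter, ranged from 14.6 to 24.2 CPM in vehicle and from 24.3 to 28.0 CPM in nicotine, with no overlap. GATA2 and FEV, transcription factors of V2b and serotonergic neurons, stood lower at 20.003 ± 9.44 against 10.8 ± 3.16 CPM and 1.36 ± 0.671 against 0.617 ± 0.0602 CPM (SD, n = 4 each). Both belong to the list of spinal interneuron transcription factors, where 10 of 16 were positive. WT1 and SIM1 of that list stood higher, at edgeR log2 fold changes of 0.87 and 0.56, without passing.

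Of the cholesterol synthesis genes tested, 10 of 12 were positive with nicotine, against 57.8% of tested loci with a symbol, and the median was 0.10. For 4 of 12 the groups did not overlap with nicotine higher, against 2.84% of the loci tested and 322 of the 8772 with a symbol. The summed level of the 12 was 556 to 624 CPM in vehicle and 632 to 667 CPM in nicotine. FDFT1, squalene synthase, ranged from 56.3 to 63.4 and from 68.3 to 75.0 CPM, and MSMO1, a sterol oxidase, from 51.8 to 61.4 and from 65.4 to 75.1 CPM. Both passed in DESeq2 on the 8 libraries of day 7 alone (adjusted p = 0.0121 and 0.0365), and 0 of the list passed in the authors' deposited table.

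Of the other lists, cell division genes had 17 of 20 positive with a median of 0.10, the same as cholesterol synthesis. Stress and immediate early genes had 10 of 21 positive with a median of -0.03. Of all tested loci with a symbol, 57.8% were positive. DDIT4, a stress-induced inhibitor of mTOR, ranged from 42.7 to 70.9 CPM in vehicle and from 31.0 to 44.5 CPM in nicotine. ATF3, a stress-induced transcription factor, ranged from 1.54 to 2.12 and from 1.02 to 1.50 CPM with no overlap. Among nicotine and xenobiotic metabolism genes the median of 10 was 0.06. CYP1B1, an oxidase of foreign compounds and retinoids, ranged from 135 to 284 CPM in vehicle and from 243 to 283 CPM in nicotine. The lists of endothelium, leukocyte, erythroid, neural crest and sensory ganglia, cartilage and matrix, and BMP, Wnt and hedgehog signalling had medians of -0.03, 0.08, -0.12, -0.12, -0.09 and 0.00, with 0 members passing in the authors' deposited table.

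**Figure D4:**
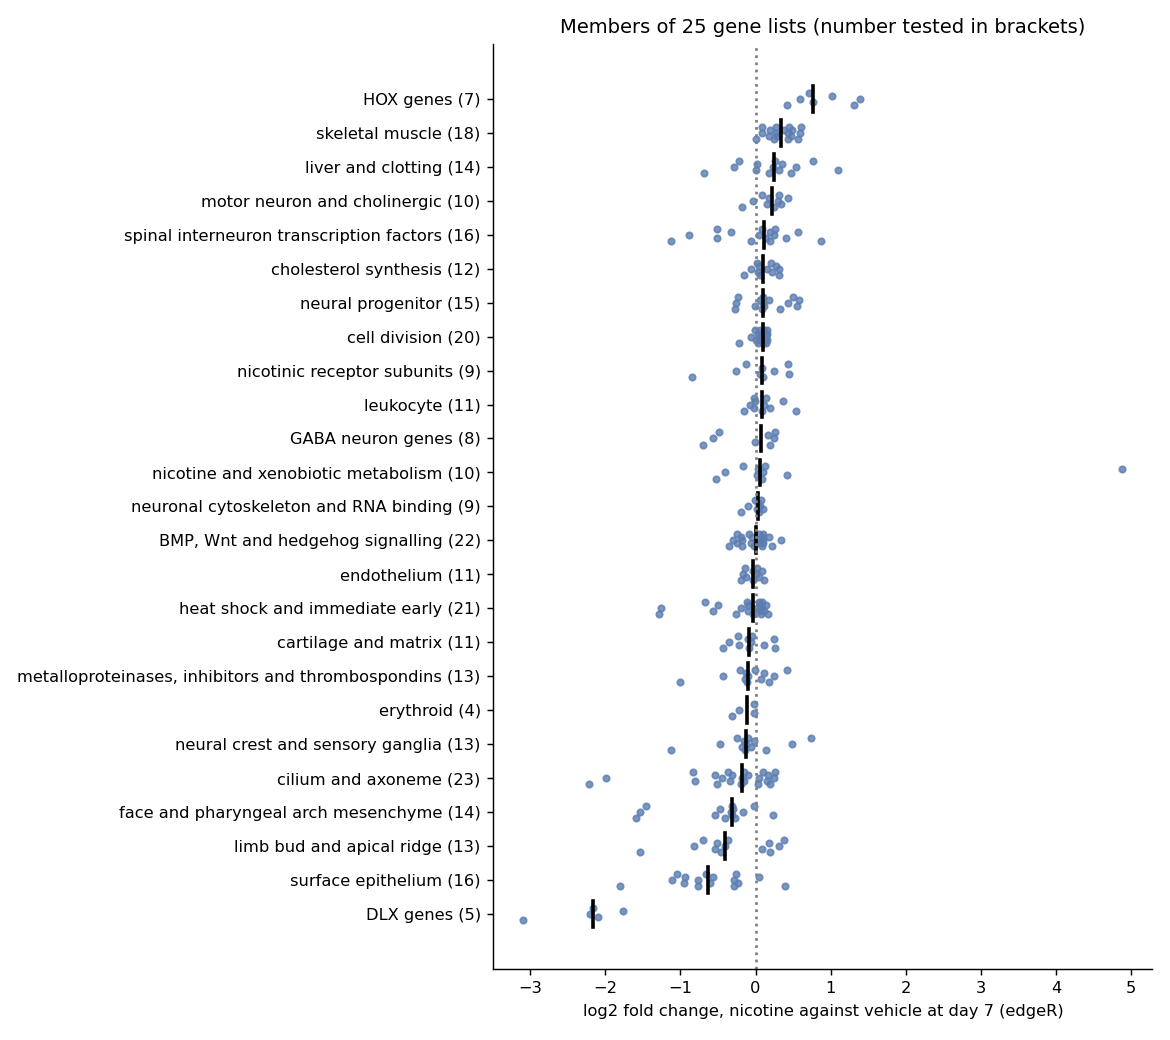
Log2 fold changes of nicotine against vehicle at day 7 (edgeR) for the tested members of 25 gene lists, 1 point per gene, with the list median as a black bar (the point at 4.88 is SULT1C3) and the median of all 18394 tested loci as a dotted line. DLX genes (median -2.17) and surface epithelium (-0.63) lie at the low end and HOX genes (0.77) and skeletal muscle (0.33) at the high end.

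For a single gene, an exact two-sided permutation test of the CPM of 4 against 4 libraries cannot go below p = 0.0286. That value is reached wherever the groups do not overlap.

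The genes called at day 7 were also compared at day 5. They were picked for their day 7 values, so larger effects at day 7 than at day 5 follow in part from that choice. DLX1, MMP11, CDH1, CFAP52 and KCNJ2 stood at 0.54, 0.16, 0.05, 0.17 and -0.06 at day 5, and at -2.10, -1.0, -0.61, -1.99 and -0.59 at day 7, as edgeR log2 fold changes. The test of the difference called 0 loci by edgeR (smallest adjusted p = 0.0956), with 2521 of 18394 (13.7%) at an unadjusted p under 0.05. DESeq2 called 233, but 57 without vehicle day 7 replicate 2, 56 without nicotine day 7 replicate 2 and 27 without both. In the authors' deposited table of that difference, where 1.33% of loci pass, MMP11 and DLX1 passed at -1.13 and -2.49 (adjusted p = 0.0205 and 0.0123), and DLX5 and DLX6 did not, at -1.96 and -2.72 (adjusted p = 0.0734 and 0.0620).

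**Figure D5:**
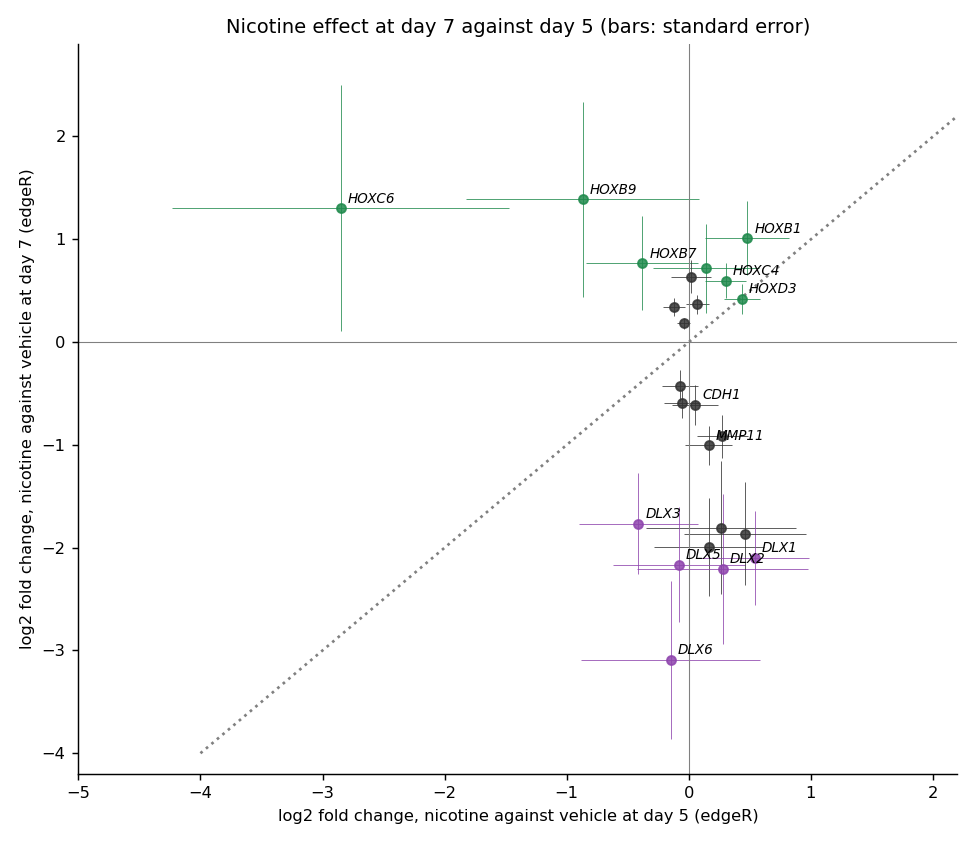
Nicotine effect at both days for 24 named genes: log2 fold change of nicotine against vehicle at day 5 (horizontal) and day 7 (vertical), with standard errors as bars; DLX genes are purple, HOX genes green and the others black, and the dotted line marks equal effects. The DLX genes lie between -3.09 and -1.77 at day 7 and between -0.41 and 0.54 at day 5. The genes were taken for day 7 calls or as DLX or HOX members, so larger values at day 7 follow in part from that choice. OR11A1, which met the same rule, is not shown (5.38 at day 7 and -0.16 at day 5 in the authors' deposited table).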

How the data were processed

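RNA from 16 chicken embryo samples was sequenced. The count table gives whole-number reads for each locus, raw as deposited, and each of its 16 columns matched 1 sample by name. Per the submitters' processing notes, StringTie 1.3.3b, HISAT2 2.0.5, DESeq2, Bowtie2 2.3.2, Trim Galore 0.4.4 and FastQC 0.11.5 were used. The build, the gene models and the strand option are not given in the sources, so neither coordinates nor sequences are printed, and genes that overlap or resemble each other share reads. The authors also deposited 5 tables of comparisons, with the log2 fold change, its size as a linear ratio (fold), the p-value before adjustment and the adjusted p-value, but no levels. Of these, 4 hold adjusted values of 1 beside small p-values, and such values are not read.

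The counts were fitted with edgeR 4.0.16 (R 4.3.3) on all 16 libraries with 4 group means, after filterByExpr and TMM scaling. The quasi-likelihood F-test was used, with a Benjamini-Hochberg adjusted p under 0.05 as the threshold, and DESeq2 1.42.0 was the alternative. Levels are CPM scaled by TMM. Standard errors are the log2 fold change divided by the square root of the F statistic. The steps were tested on simulated counts. A covariate, taken from the data, marks the 4 libraries with under 0.05 CPM at 57 loci that have at least 0.5 CPM in all others. A DESeq2 fit with that covariate was used for the join below, and whether the authors used such a term is not stated. Of the 7138 rows joined by identifier, 5764 also matched that fit by the rule below, in log2 fold change and in p. That fit and the authors' deposited table are therefore not separate tests.

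Named rows were joined to loci by identifier, or else where the log2 fold changes of 3 comparisons matched within 0.001, the nearest other locus was at least 10 times as far, and log10 p matched within 0.05 of its size. That join was devised after the data were seen. A first, absolute tolerance of 0.05 on log10 p joined 7530 named rows in place of 9183, and it was loosened after named genes dropped out. Of neighbouring pairs of joined loci 98.2% lie on the same RefSeq chromosome, against 5.8% for random pairs.

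The members, gene lists and tests were chosen with earlier results of these data known. The rule for named genes took those with a symbol that pass in the authors' table, those called at day 7 by edgeR or DESeq2, and up to 6 per direction with the smallest edgeR p. It added the listed DLX, HOX and nicotinic receptor genes, of which 1 is not reported here, up to 4 of each other list, and up to 2 loci without a symbol per direction. The replicate numbers did not pair the samples at day 7. No pair of day 7 libraries was alike at more than 3.45% of loci. P-values of the main fit rest on the spread between embryos within the 4 groups, so the day 5 libraries enter them too.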

Additional observations from a re-analysis of the deposited data

Results flagged for a closer look

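In 12 of 271 groups of 4 libraries of named genes, 1 library stood apart from the other 3. Chance alone flags about 1 in 20 groups, so this count is no more than chance alone would give. Vehicle replicate 2 stood above its group for THBS4, at 130 CPM against 75.8 to 82.6, and for TFAP2C, at 8.70 CPM against 2.92 to 3.29. It was also the vehicle library with reads for SYPL1 and for SULT1C3, at 0.0744 CPM each, or 2 counts, against 0. Where the other libraries all stand at 0, any count is flagged. Vehicle replicate 3 stood above its group for AGFG1, at 70.4 CPM against 50.5 to 53.3, and for BFAR, at 32.4 CPM against 28.9 to 29.5, and vehicle replicate 1 for SLIT2, an axon guidance protein, at 175 CPM against 161 to 163. Among nicotine libraries, replicate 2 was high for FGF10, at 2.47 CPM against 1.53 to 1.6, and for SULT1C3, at 2.40 CPM against 0 to 0.272. Replicate 1 was high for HOXB1, at 13.4 CPM against 5.35 to 6.70, replicate 3 was high for IRAK2, at 46.0 CPM against 41.6 to 42.1, and replicate 4 was low for DYNLRB1, at 74.9 CPM against 111 to 115.

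Many of the 154 named genes were chosen for their day 7 values, which are part of the difference between days. In the authors' deposited table of that difference 1.33% of all loci pass. For 16 of the named genes the nicotine effect differed there between day 7 and day 5, on the log2 scale and as day 7 less day 5. It was negative for DLX1 at -2.49 (adjusted p = 0.0123), DDIT4 at -1.38 (adjusted p = 0.00452), MMP11 at -1.13 (adjusted p = 0.0205) and DUSP1, an immediate early phosphatase, at -0.71 (adjusted p = 0.0218). Muscle genes were positive in the authors' deposited table, with MYH15 at 1.06 (adjusted p = 0.0205), MYOM1 at 1.06 (adjusted p = 0.0416) and MYL3 at 1.03 (adjusted p = 0.0349). Also positive there were COL8A1, a network collagen, at 1.53 (adjusted p = 0.0306), SLC24A4 at 1.09 (adjusted p = 0.0228), TIMP4 at 0.99 (adjusted p = 0.0207) and ATR, the DNA damage kinase, at 0.84 (adjusted p = 0.00478). The rest were TMEM41B at 0.51 (adjusted p = 0.0436), RRAGD at 0.50 (adjusted p = 0.0266), PARD3 at 0.43 (adjusted p = 0.00564), CASC4 at 0.36 (adjusted p = 0.0212) and NIT2 at 0.25 (adjusted p = 0.0328), all from the authors' deposited table. In their table of day 5, ATR stood at -0.53 (adjusted p = 0.0156) and PARD3 at -0.23 (adjusted p = 0.0413). DUSP1 and DDIT4 stood there at 0.46 and 0.71 (adjusted p = 0.0414 and 0.0470). At day 7 these genes stood at 0.31, 0.20, -0.26 and -0.67 without passing, so their differences came in part from day 5. MMP11 and NIT2, by contrast, stood at 0.15 and -0.07 at day 5 and did not pass there. edgeR called 0 loci for this difference, with 2521 at an unadjusted p under 0.05. DESeq2 called 233, but 57 and 56 without vehicle and nicotine day 7 replicate 2, and 27 without both.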

How the results depend on the processing

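The number of loci called at day 7 depended on the tool. edgeR called 0 with RLE size factors, with no filter on low counts, with the covariate for absent loci and with both libraries that lack the 57 loci left out (an alternative chosen after the data were seen), 5 on the 8 libraries of day 7, and 0 to 1 without 1 of those libraries. With the replicate block within each day edgeR also called 0 (561 at an unadjusted p under 0.05), and the numbers do not pair the samples: deviations of same-numbered day 7 libraries correlated at -0.0371, 0.342, 0.0173 and -0.0189, and not every library correlated best with its own number. DESeq2 called 28, 184 with the covariate, 95 on the 8 libraries of day 7 and 20 without both libraries that lack the 57 loci, and 22 to 69 without 1 library, with 69 and 46 without vehicle and nicotine replicate 3. For the difference between days edgeR called 0 in most settings, 1 with the covariate and 0 to 5 without 1 of the 16 libraries, the 5 without vehicle day 5 replicate 4. DESeq2 called 233 for it, 310 with the covariate, 56 to 213 without 1 day 7 library (57 and 80 without vehicle replicates 2 and 4, and 103, 56 and 149 without nicotine replicates 1, 2 and 3) and 27 without both that lack the 57 loci, the last 3 added after the data were seen. Of the authors' 84 calls, 65 remain at an adjusted p under 0.01 and 30 with a log2 fold change of at most 10 in size. The cause of these differences was not tested.

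Of 136 named loci tested by edgeR, the direction turned for 9, all with small changes. Without 1 library the log2 fold change ranged from -0.45 to 0.045 for CHRNA2, -0.023 to 0.41 for CHRNB3, -0.11 to 0.35 for CHRNB4, -0.10 to 0.37 for CHRNG, -0.14 to 0.21 for ELAVL2, -0.30 to 0.19 for HBZ, -0.46 to 0.0043 for SLC4A1 and -0.14 to 0.14 for SPTB. Without both libraries that lack the 57 loci, edgeR and DESeq2 gave -0.11 and -0.12 for CHRNB4, -0.046 and -0.049 for CHRNG, and -0.0021 and -0.00067 for SNAP25. Under the replicate block SPTB stood at 0.00097.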

Other observations

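The smallest pair of edgeR p-values at day 7 belonged to loci without a symbol. ENSGALG00000032971 had 0 counts in the 4 vehicle libraries and 10, 6, 5 and 9 counts in nicotine (edgeR adjusted p = 0.0616). MSTRG.13336, paired with ENSGALG00000042519, stood at 18.5, 22.7, 22.7 and 24.3 CPM in vehicle and 37.3, 36.2, 37.6 and 41.0 CPM in nicotine (edgeR adjusted p = 0.0616), so every nicotine library was above every vehicle library. Lower with nicotine, MSTRG.10643, paired with ENSGALG00000013311, stood at 31.7, 27.6, 24.9 and 26.7 CPM in vehicle and 10.5, 11.2, 14.3 and 10.5 CPM in nicotine (edgeR adjusted p = 0.905).

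A pair of loci was present in all 4 libraries of 1 day 7 group, with at least 20 counts each, and had 0 counts in all 4 of the other. MSTRG.15087 had 71, 64, 96 and 76 counts in vehicle and 0 in nicotine. It did not pass in edgeR on all libraries (adjusted p = 0.905) but did in DESeq2 (adjusted p = 4.89e-05). edgeR on the 8 libraries of day 7 called it too (adjusted p = 0.0189). MSTRG.16481, singled out after its values were seen, had 0 counts in vehicle and 92, 118, 83 and 74 in nicotine. At day 5 MSTRG.15087 had 67 to 112 counts in the vehicle libraries and 0, 115, 103 and 0 in nicotine, and MSTRG.16481 had 86, 91, 86 and 102 counts in vehicle and 0, 0, 96 and 0 in nicotine. Each was thus either absent or near a common level in a given embryo. At day 5 the same rule found 1 locus, MSTRG.15169, with 0 counts in vehicle and 32 to 42 in nicotine. At day 7 MSTRG.15169 had 41, 45, 47 and 0 counts in vehicle and 57, 0, 0 and 47 in nicotine, so its presence did not follow treatment.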
